A study of Mus musculus with 12 samples.

Results

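The genes described here code for collagens, laminins and other components of the extracellular matrix, measured in mouse cerebral cortex at E16.5, in embryos late in the birth of cortical neurons. They were chosen by name. Members were all probe sets whose gene symbol begins with Col and a digit, Lama, Lamb and a digit, Lamc, Fbn, Fbln, Nid or Thbs, together with Fn1, Sparc, Lum, Bgn, Tnc, Ncan, Vcan and Reln. This gave 80 probe sets for 55 genes, out of 12422 non-control probe sets, which the platform annotation pairs with 8251 genes. A probe set is a group of short oligonucleotides on the array that reports on a single transcript or a small family of transcripts. Its suffix tells how it was designed: r marks sets for which some selection rules were dropped, f sets that match a family of similar sequences and s sets shared by several transcripts, and g and i sets also occur. Sets without such a letter are called plain here.

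The cerebral hemispheres of E16.5 embryos had been cut into pieces, and RNA from each kind of piece was hybridised to Affymetrix mouse oligonucleotide arrays. There were 12 arrays in 6 groups of 2, named ventral, medial, dorsal, rostral, occipital and whole hemisphere. No group carries a mutation or treatment, and the labels give no strain, sex or number of embryos for a piece. The repeats are described as separate dissections, and the protocol text lists a lateral piece where the sample titles have a rostral one; the titles were followed.

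The extracellular matrix of the embryonic cortex has several sources. Fibroblasts of the meninges, the membranes that cover the brain, secrete fibrillar collagens and help to build the basement membrane on which the end-feet of radial glia rest, and endothelial cells and pericytes build the basement membrane of blood vessels. Neural cells secrete a softer matrix of hyaluronan-binding proteoglycans, tenascin and, from Cajal-Retzius cells of the marginal zone, reelin, the glycoprotein that guides the layering of cortical neurons.

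Each value is an average difference, the mean signal of perfectly matched probes minus that of mismatched probes, which is an intensity on a linear scale and can fall below 0. Values of different probe sets cannot be set against each other. A probe set was tested when it exceeded 1387, which is 2 times a noise floor of 693.5, on at least 2 of the 12 arrays. Each region was set against the mean of the other 4 regions in a limma model of all 5832 tested probe sets, and called at an adjusted p of 0.05. Differences are in log2 of the floored values, with their standard error (SE).

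The arrays were alike in distribution, with medians of 735 to 849 and 39.1% to 41.7% of probe sets above 1387. The arrays labelled rostral and occipital did not repeat their labels. Zic1, a transcription factor gene active in meningeal cells and medial forebrain, had 3284.1 in rostral replicate 1 and 22096.9 in rostral replicate 2, against 20732.9 in occipital replicate 1 and 2877.8 in occipital replicate 2. Many of the calls and larger differences that rest on these 4 arrays are therefore given also without them. The other pieces are then set against 2 regions. All 8 neuronal markers looked for were tested, 7 of the 9 radial glial markers on the array were, and the tissue is bulk tissue, in which fewer cells of a type and less RNA per cell cannot be told apart.

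Most of the collagen and laminin probe sets gave no signal above the noise. Over the array 46.9% of the 12422 non-control probe sets passed the filter and were tested. Of the 80 matrix probe sets, 23 were tested, and they cover 19 of the 55 genes. The other 57 exceeded 1387 on 0 of the 12 arrays, and 43 of them lay under the floor on every array. Their values ran from -2564.0 to 1376.2. A value this low is a bound set by the array and its probes, and does not show that the RNA is absent. Of the tested probe sets, 13 were above 1387 on all 12 arrays.

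**Figure D1:**
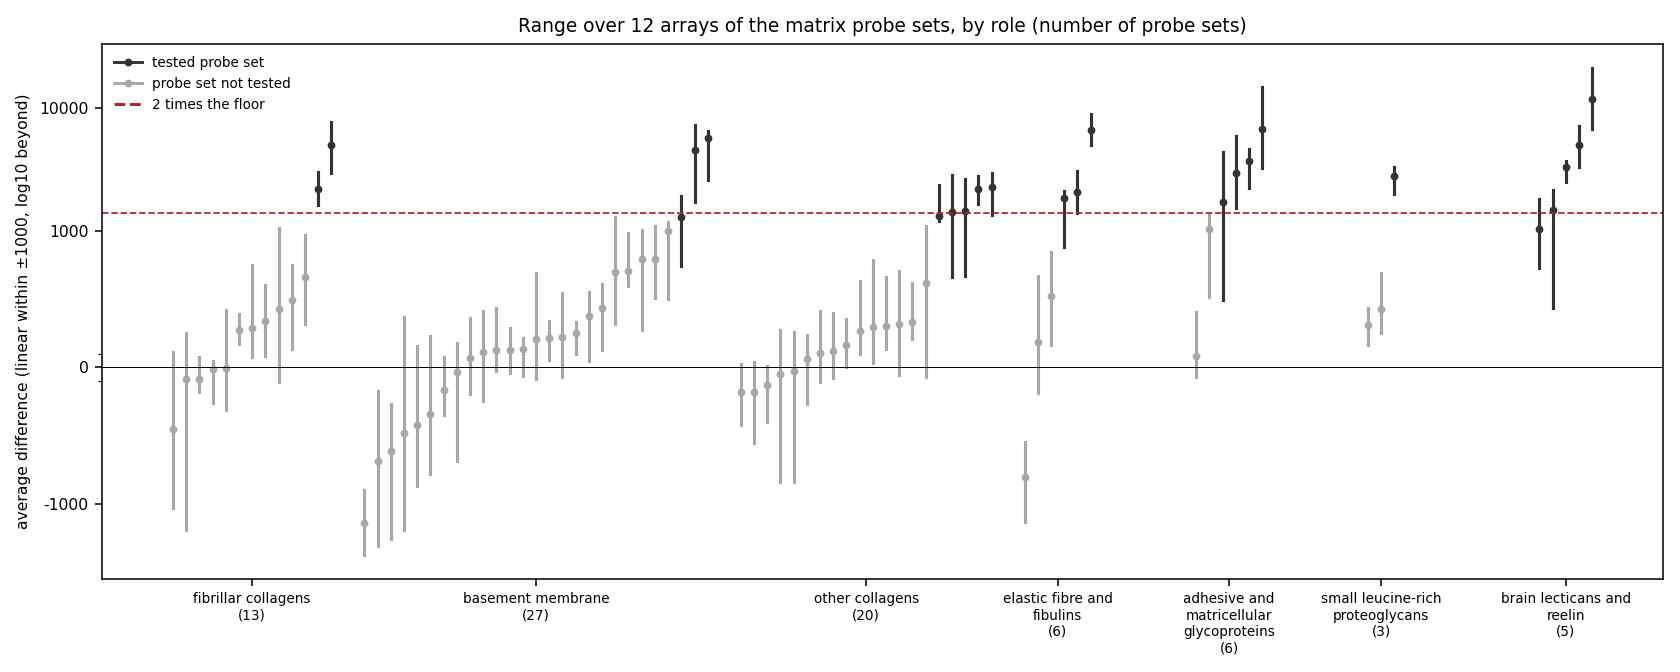
Range over the 12 arrays of each of the 80 matrix probe sets, grouped by role, on an axis of average difference that is linear near 0 and log10 farther out, as its label states. Points are medians and bars run from the lowest to the highest array, with the 23 tested probe sets in black, the 57 others in grey and 2 times the floor as a dashed line; the lecticans and reelin have all 5 of their probe sets tested, and the basement membrane group 3 of 27.

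Fibrillar collagens form the cross-banded fibres of connective tissue. Only Col1a2 and Col5a1 had a tested probe set among the 8 fibrillar genes on the array. Both probe sets of Col1a1, which codes for the major chain of type I collagen, stayed at or below 1042.3, and the 3 of Col3a1, the type III chain of soft tissue, at or below 604.8. Col2a1, Col5a2, Col11a1 and Col11a2 were not tested either. The tested Col1a2 probe set, an r set, ranged from 2915.3 to 7572.8 over the 12 arrays, whereas the plain Col1a2 probe set ranged from -1082.4 to 112.4. The high Col1a2 signal therefore has no other probe set beside it. Col5a1, a chain of the collagen that nucleates type I fibrils, ranged from 1620.4 to 2973.6, and no group lay apart from all the others.

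Basement membranes are sheets of type IV collagen, laminin trimers and nidogens. Col4a1 and Col4a2, which code for the 2 chains of the vascular and pial type IV network, were above 1387 on every array, and 1 probe set of Lamc1, the gamma chain shared by most laminins, passed on 3 arrays. The other 15 genes of this role were not tested. They are the alpha chain genes Lama1, Lama2, Lama3, Lama4 and Lama5, the beta chain genes Lamb1, Lamb2 and Lamb3, the nidogen genes Nid1 and Nid2, the kidney and lens type IV chains Col4a3, Col4a4 and Col4a5, and Col15a1 and Col18a1, whose products sit at the outer face of basement membranes. Lama4, the endothelial alpha chain, came near the limit in 1 plain probe set, at 503.5 to 1179.4. Col18a1 had 5 probe sets that did not share a level, since a plain set reached 1291.7 and the s set was below 0 on every array.

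Other collagens tested were Col6a1, a chain of the beaded filaments around cells, Col7a1, the anchoring fibril collagen, Col9a2 and Col9a3, chains of a collagen that decorates type II fibrils in cartilage, and Col26a1. Not tested were Col6a2, Col6a3, Col8a1, Col9a1, Col10a1, Col12a1, Col13a1, Col14a1, Col17a1, Col19a1 and Col22a1. Among elastic fibre genes Fbln1 and Fbln2 passed and Fbn2 did not. The thrombospondin genes Thbs2 and Thbs3 were not tested, although Thbs3, at 512.0 to 1376.2, had the highest value of any probe set left out. Bgn, which codes for biglycan, passed, and Lum, which codes for the corneal and dermal proteoglycan lumican, lay between 166.2 and 431.9. The 3 genes of the neural matrix, Ncan, Vcan and Reln, passed in all of their probe sets.

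The vascular type IV genes Col4a1 and Col4a2 lie head to head on chromosome 8, transcribed away from each other. The starts given for them in RefSeq (build GRCm38.p6) cross, so that the transcripts share the stretch chr8:11312805-11312826, which is shown because it is the midpoint of the promoter that serves both genes whose values are compared below. It reads, on the plus strand:
Col4a1 and Col4a2 start overlap: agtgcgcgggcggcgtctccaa

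Promoters were searched on both strands, over the 250 bases before the start in RefSeq, for the GC box GGGCGG, the CCAAT box CCAAT and the TATA box TATAAA. Of 32817 mouse promoters of this length, 32.7% held the GC box, 33.8% the CCAAT box and 12.4% the TATA box. Entries were found for 15 of the 19 tested genes, of which 11 held the GC box, 5 the CCAAT box and 2, Ncan and Tnc, the TATA box. The promoter of Col9a2, at chr4:121039316-121039565 on the plus strand, and that of Vcan, at chr13:89742513-89742762 on the minus strand, are shown because these genes had called differences below, with matches in capitals:
Col9a2: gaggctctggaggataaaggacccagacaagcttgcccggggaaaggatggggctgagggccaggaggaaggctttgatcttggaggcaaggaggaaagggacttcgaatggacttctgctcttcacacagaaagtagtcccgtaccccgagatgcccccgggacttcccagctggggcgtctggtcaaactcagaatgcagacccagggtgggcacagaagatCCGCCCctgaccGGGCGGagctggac
Vcan: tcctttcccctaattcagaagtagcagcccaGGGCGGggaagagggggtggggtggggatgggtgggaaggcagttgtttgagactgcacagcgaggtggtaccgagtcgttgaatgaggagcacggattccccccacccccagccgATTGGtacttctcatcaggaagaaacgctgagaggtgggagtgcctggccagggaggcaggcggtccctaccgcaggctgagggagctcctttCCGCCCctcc
Col9a2 held 2 GC boxes, on opposite strands 26 and 14 bases before the start. Vcan held GC boxes at 219 and 10 bases and a CCAAT box at 103 bases. These matches describe the letters and not bound sites.

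A single matrix gene passed the test for a region. Col9a2 had 2366.6 and 2204.9 in the ventral arrays, against 1263.8 and 1212.6 in medial, 1276.3 and 1252.6 in dorsal, 1208.8 and 1474.7 in rostral and 1363.0 and 1597.4 in occipital arrays. Both ventral arrays lay above all 8 others, and above the hemisphere arrays, which had 1254.5 and 1759.7. All medial and dorsal arrays, rostral replicate 1, occipital replicate 1 and hemisphere replicate 1 lay under 1387, 2 times the floor. The means were 2286 ± 114 in the ventral arrays (SD, n = 2) and 1331 ± 139 in the other regions (SD, n = 8). The difference of 0.79 ± 0.16 (SE) on the log2 scale is 1.72-fold, with a 95% interval of 0.43 to 1.14 and a limma adjusted p of 0.0165. Without the rostral and occipital arrays it was 0.87, with a limma adjusted p of 0.0283. The call did not hold when either ventral array was left out, with limma adjusted p-values of 0.173 without ventral replicate 1 and 0.111 without replicate 2.

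The ventral call is 1 of 23 matrix probe sets (4.35%), and over all tested probe sets limma called 571 of 5832, or 9.79%, with 4.25% of all tested higher and 5.54% lower. In the direction of the Col9a2 call the matrix share was thus close to that of the array. The median difference of the matrix probe sets was 0.20, with 13 above 0 and 10 below, and that of all tested probe sets was -0.02. The partner chain Col9a3 did not follow Col9a2, with 2108.5 and 2054.9 in the ventral arrays inside the range of 1470.2 to 2916.3 of the other regions. Col9a1, the third chain of type IX collagen, was not tested. Neuronal markers moved with the ventral group as well. Of the 8 tested, 4 were called higher and 0 lower there, and their summed level was 260560 to 268815 in the ventral arrays and 170083 to 240014 in the arrays of the other regions. Whether they bear on Col9a2 was not tested.

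In the medial piece set against the ventral piece, which reuses the same ventral arrays, Col9a2 was lower by 0.88 ± 0.20 (log2, SE), at a limma adjusted p of 0.0239. It was the 1 matrix probe set called, 4.35% of 23, where 656 of 5832 (11.2%) were called over the array, 6.05% higher and 5.2% lower. This call was lost without either medial array, at limma adjusted p-values of 0.0971 and 0.117, and without either ventral array, at 0.133 and 0.0922. Of matrix probe sets not called, Col4a2 differed by -1.39 ± 0.50 (limma adjusted p = 0.122), Lamc1 by 0.85 ± 0.33 (0.144) and Sparc by 0.69 ± 0.23 (0.101). Lamc1 passed the filter only through its medial arrays.

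**Figure D2:**
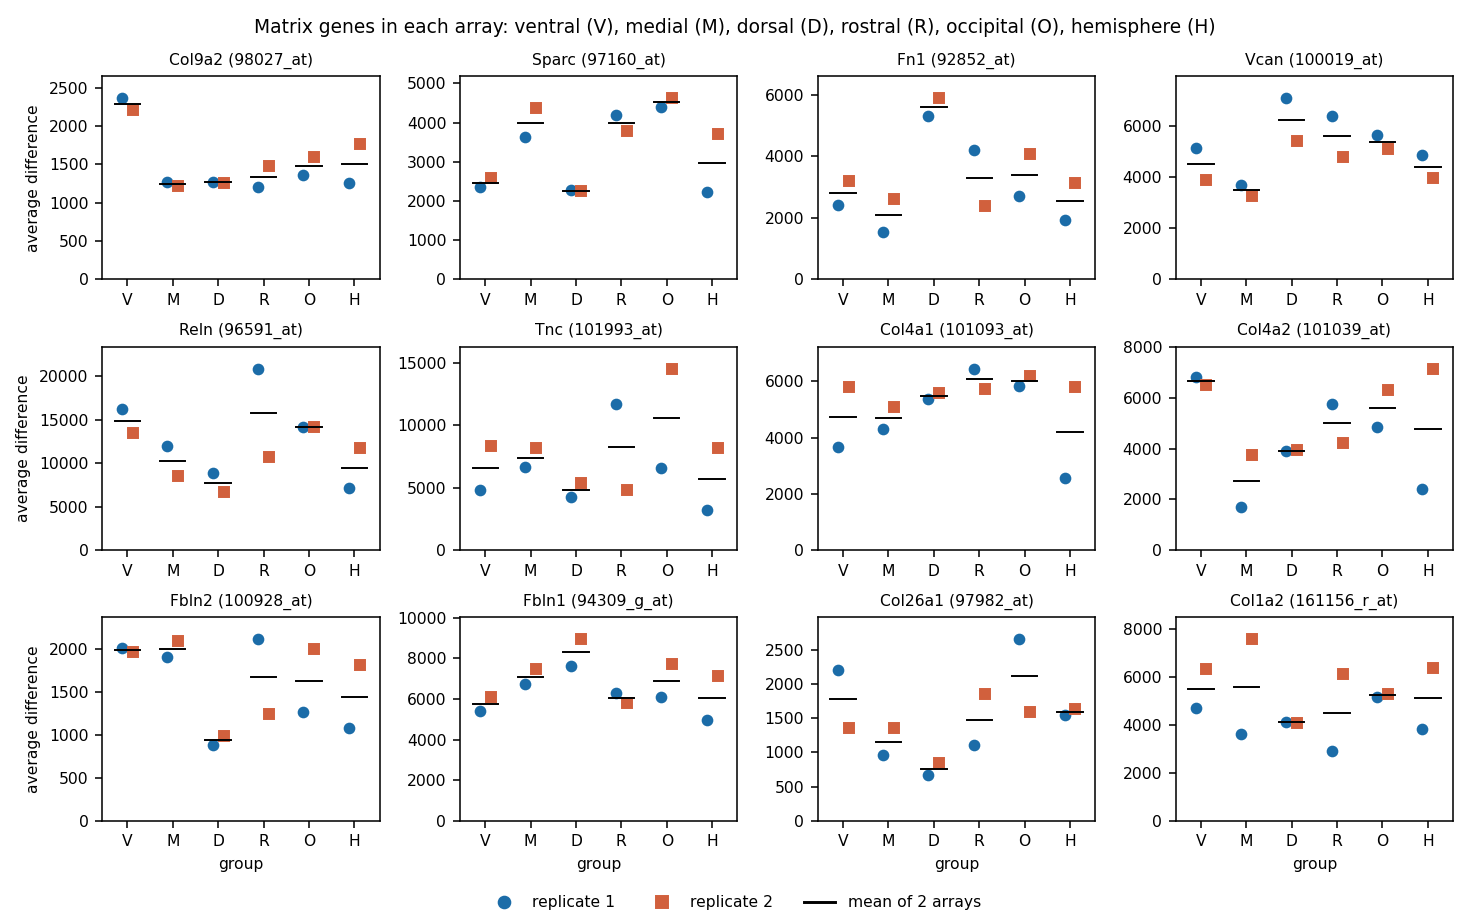
Average difference of 12 matrix probe sets on each of the 12 arrays, by group in the order ventral, medial, dorsal, rostral, occipital and hemisphere, with replicate 1 as circles, replicate 2 as squares and the mean of the 2 arrays as a line. Both Col9a2 values of the ventral piece stand above the rest, both dorsal values of Fn1 are the highest of 12, and the rostral values of Tnc, Fn1 and Reln lie far apart.

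Sparc, which codes for a collagen-binding glycoprotein made by vessels, meninges and radial glia, came closest to a difference among all 5 regions. It had 2349.5 and 2582.8 in ventral, 3620.2 and 4362.3 in medial, 2270.7 and 2254.0 in dorsal, 4198.9 and 3774.6 in rostral and 4397.7 and 4628.2 in occipital arrays. The dorsal and ventral arrays lay below the arrays of the other 3 regions with no overlap, and the hemisphere arrays, at 2241.1 and 3700.1, spanned the gap. The limma F-test over the 5 regions gave an adjusted p of 0.0997, the smallest of the matrix probe sets. By this test 0 of 23 were called, where limma called 190 of 5832 probe sets (3.26%). Of the 23, 5 had an unadjusted p under 0.05, where 876 of 5832 (15%) did over the array. The dorsal difference of Sparc was -0.69 ± 0.18 (limma adjusted p = 0.274) and the ventral difference was -0.53 ± 0.18 (limma adjusted p = 0.117). Sparc passed the limma F-test and the ventral comparison when either hemisphere array was left out. With the replicate number as a term in the fit it passed the F-test (limma adjusted p = 0.0486), in a fit that called 442 of 5832 probe sets (7.58%). Its ventral difference was -0.28 and its dorsal difference -0.47 without the rostral and occipital arrays (limma adjusted p = 0.522 and 0.778).

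The dorsal piece held the highest Fn1 and the lowest Fbln2 and Col26a1 values, and none of these genes passed the adjusted threshold. Fn1, which codes for fibronectin, the adhesive glycoprotein of meninges and vessels, had 5295.8 and 5898.6 in dorsal arrays, against 2431.5 and 3197.1 in ventral, 1533.0 and 2627.9 in medial, 4209.5 and 2398.3 in rostral and 2708.0 and 4082.7 in occipital arrays. Both dorsal arrays lay above the other 10 arrays. The difference of 1.01 ± 0.30 has a 95% interval of 0.33 to 1.70 and a limma adjusted p of 0.353. Fbln2, which codes for a fibulin of vessel walls and basement membranes, had 881.7 and 990.5 in dorsal arrays, against 1244.6 to 2112.8 in the other regions. Its difference was -0.94 ± 0.26, with a limma adjusted p of 0.305. Col26a1 had 665.6, which is under the floor, and 851.7 in dorsal arrays, against 964.7 to 2653.0 in the other regions. Its difference was -1.01 ± 0.28, with a limma adjusted p of 0.297. Without the rostral and occipital arrays the dorsal differences were 1.24 for Fn1, -1.09 for Fbln2 and -0.87 for Col26a1, again with no call (limma adjusted p = 0.213, 0.152 and 0.341).

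The dorsal list of limma calls was short for the whole array, with 16 of 5832 probe sets (0.274%, with 0.12% higher and 0.154% lower) and 0 of 23 matrix probe sets. Of the matrix probe sets 7 had an unadjusted p under 0.05, where 386 of 5832 (6.62%) did over the array. These 7 were Fn1, Vcan and the plain set of Fbln1 on the higher side and Sparc, the plain set of Reln, Fbln2 and Col26a1 on the lower. The median matrix difference was -0.18, with 7 above 0 and 16 below, against 0.02 for all tested probe sets. Fbln1, which codes for a fibulin bound to fibronectin, had its highest dorsal mean in both tested probe sets, with the g set at 7654.5 and 8949.1 in dorsal arrays against 5425.2 to 7705.2 in the other regions, so that 1 other array overlapped. The differences were 0.37 ± 0.17 for the g set and 0.55 ± 0.19 for the plain set (limma adjusted p = 0.801 and 0.463).

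Meningeal markers did not move together in the same dorsal arrays. Of 17 on the array 8 were tested, limma called 0 of them for the dorsal piece, and 8 never exceeded 1387, among them Foxc1, Foxd1 and Aldh1a2, which define meningeal fibroblasts. Their summed level, with negative values counted as 0 so that bright probe sets weigh most, was 27955 to 28846 in dorsal arrays, against 32112 to 32504 in ventral, 30097 to 31820 in medial, 35583 to 48715 in rostral and 34821 to 47176 in occipital arrays. That gap rests on Zic1, which had 598.6 and 906.5 in dorsal arrays. Without Zic1 the sum was 27357 to 27939 in dorsal arrays, against 25051 to 25271 in ventral, 26661 to 28712 in medial, 26618 to 32298 in rostral and 26443 to 31943 in occipital arrays, so that the dorsal arrays lay above the ventral ones and within the range of the other 3 regions. Choroid plexus markers, of which Ttr and Aqp1 were tested and Folr1 and Kl never exceeded 1387, summed to 1425 to 1710 in dorsal arrays and 1416 to 9136 in the other regions. Their part in the dorsal values of the matrix genes was not tested.

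The plain probe set of Reln had its lowest regional mean in the dorsal piece. It had 8860.9 and 6688.4 in dorsal arrays, against 16220.0 and 13457.8 in ventral, 12007.1 and 8524.7 in medial, 20899.8 and 10753.0 in rostral and 14139.9 and 14164.2 in occipital arrays. The dorsal and medial values overlapped, and the dorsal values lay below those of the ventral, rostral and occipital pieces. The dorsal difference was -0.79 ± 0.28 (unadjusted p = 0.0196, limma adjusted p = 0.513), and -0.67 without the rostral and occipital arrays (limma adjusted p = 0.622). The r set of Reln did not follow, with 1282.7 and 1438.4 in dorsal arrays and 436.7 to 2137.0 in the other regions, its lowest regional mean in the rostral piece and a dorsal difference of -0.03 ± 0.47 (limma adjusted p = 0.999). Calb2, which codes for calretinin and is another marker of Cajal-Retzius cells, was called lower in the dorsal piece, with 1024.5 and 738.0 in dorsal arrays against 2017.3 to 4060.5 in the other regions (difference -1.91 ± 0.27, limma adjusted p = 0.0391). The Calb2 call held without the rostral and occipital arrays (limma adjusted p = 0.0360) and was lost in 10 of the 12 fits that left out a single array, with limma adjusted p-values of up to 0.551. The Calb2 call was also lost with a lower or a higher floor, with no filter and on an arcsinh scale. With the ventral piece left out of the other regions it was lost as well. Ebf2, the other tested marker of Cajal-Retzius cells, was not called for the dorsal piece. It was called higher in the ventral piece (1.28 ± 0.15, limma adjusted p = 0.00188) and lower in medial against ventral (-1.32 ± 0.19, limma adjusted p = 0.00353). Both Ebf2 calls were lost with the floor raised to 2 times its value. Without the rostral and occipital arrays the Ebf2 differences were 1.32 and -1.32 (limma adjusted p = 0.00780 and 0.0129). In that fit the medial and dorsal arrays thus had the same mean of floored values. Values set to the floor have no spread, so the SE of such a gene can be too small. Summed Cajal-Retzius markers, Reln included, were 8405 to 10563 in dorsal arrays and 13868 to 26298 in the other regions. Without Reln they were 1702 to 1717 in dorsal arrays and 4025 to 7891 in the other regions. Of 7 on the array 3 were tested, and Lhx1, Lhx5, Ebf1 and Ebf3 never exceeded 1387.

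The tested genes of reelin signalling had no regional call. Of 7 genes of reelin signalling on the array 5 were tested, and limma called 0 of them for any region. The receptor gene Vldlr and the adaptor gene Crk never exceeded 1387. The receptor gene Lrp8 had no probe set assigned to it alone, so neither Vldlr nor Lrp8 was tested. Dab1, the adaptor that reelin phosphorylates, had 5011.2 and 7120.4 in ventral arrays and 9124.8 to 15865.4 in the other regions, a gap that limma did not call.

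Of the lecticans, the hyaluronan-binding proteoglycans of brain, Vcan, the gene of versican, had its lowest values in the medial piece. It had 3710.6 and 3285.9 in medial arrays, against 5147.1 and 3884.8 in ventral, 7111.6 and 5409.8 in dorsal, 6418.0 and 4800.8 in rostral and 5670.6 and 5113.0 in occipital arrays. The medial arrays were the lowest of the 5 regions and did not overlap with them. The medial difference was -0.62 ± 0.18 (95% interval -1.03 to -0.21, limma adjusted p = 0.154) and the dorsal difference 0.42 ± 0.18 (limma adjusted p = 0.749). They were -0.59 and 0.65 without the rostral and occipital arrays (limma adjusted p = 0.190 and 0.391). With the replicate number as a term in the fit, the medial difference of Vcan was called at -0.62 ± 0.11 (limma adjusted p = 0.0223), where 256 of 5832 probe sets (4.39%) were called, and Vcan passed the limma F-test (0.0339). Ncan, the gene of neurocan, the lectican of neurons and young astrocytes, stayed in its plain probe set between 2481.8 and 3670.3 on all 12 arrays, with a medial difference of -0.35 ± 0.16 (limma adjusted p = 0.391).

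In the medial piece limma called 74 of 5832 probe sets (1.27%, with 0.514% higher and 0.754% lower) and 0 of 23 matrix probe sets. Over the array 810 of 5832 probe sets (13.9%) had an unadjusted p under 0.05, and 4 of the matrix probe sets did. Besides Vcan these were Fn1, at -0.84 ± 0.30 (limma adjusted p = 0.242), Col4a2 and Lamc1. Lamc1, in an f probe set, had 1704.7 and 1919.2 in medial arrays, above the 743.0 to 1652.4 of the other regions, with a difference of 0.63 ± 0.26 (limma adjusted p = 0.315). Col4a2 lay on the opposite side at -1.02 ± 0.39 (limma adjusted p = 0.276). Without the rostral and occipital arrays the medial differences were -0.98 for Fn1, 0.69 for Lamc1 and -1.01 for Col4a2. Again none was called (limma adjusted p = 0.151, 0.334 and 0.364). The median matrix difference in the medial piece was -0.09, with 10 above 0 and 13 below, against 0.02 for all tested probe sets.

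**Figure D3:**
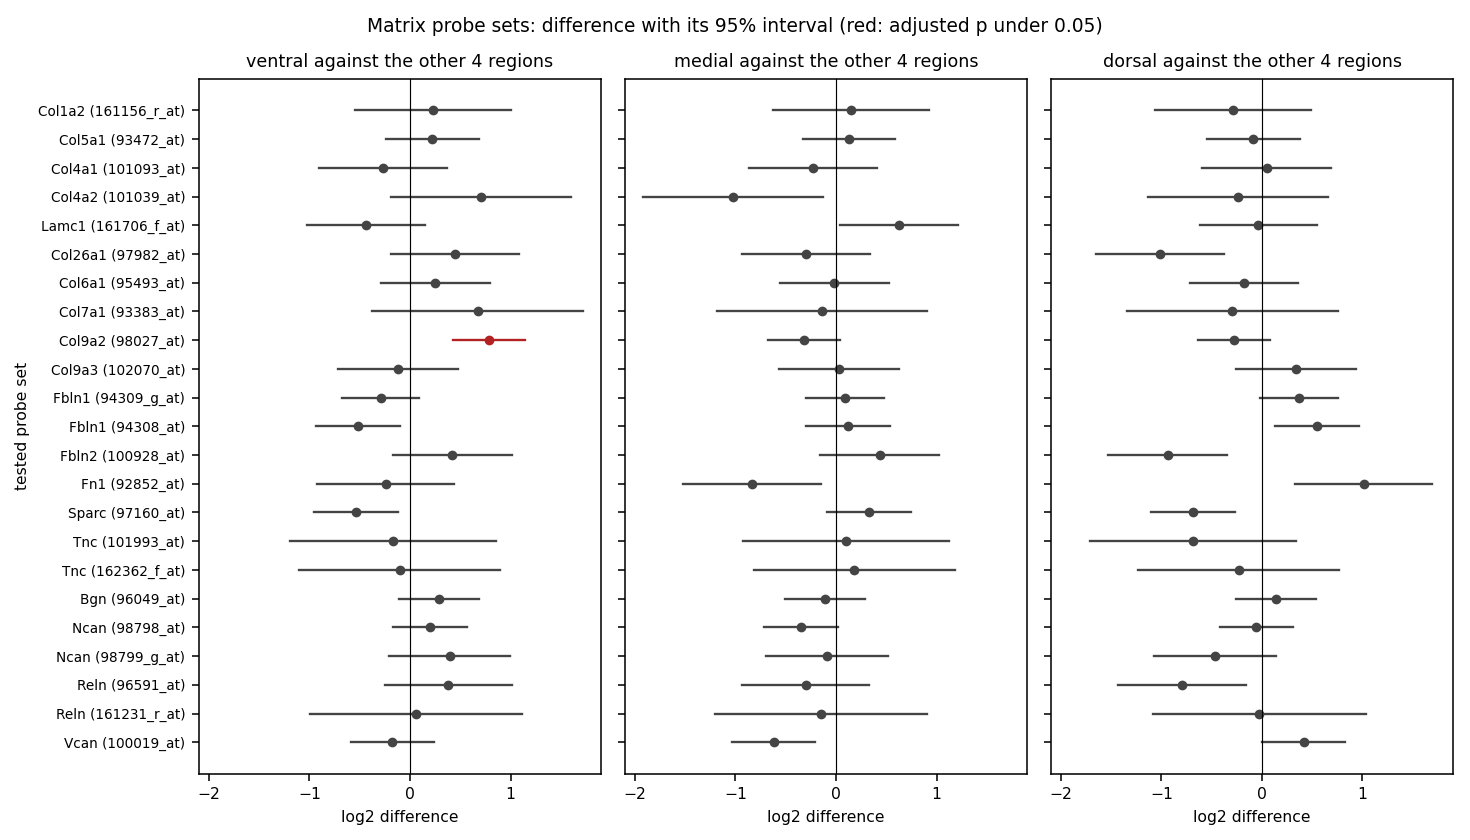
Difference on the log2 scale of the 23 tested matrix probe sets for the ventral, medial and dorsal piece, each against the mean of the other 4 regions, with 95% intervals from limma. Col9a2 in the ventral piece, in red, is the 1 difference with an adjusted p under 0.05; the 3 panels share arrays and so are not independent.

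Col4a1 and Col4a2 showed how far the type IV pair moves together from array to array. Col4a1 had 3656.9 and 5791.4 in ventral, 4317.2 and 5091.3 in medial, 5372.9 and 5569.4 in dorsal, 6456.3 and 5728.2 in rostral, 5834.4 and 6200.3 in occipital and 2574.5 and 5815.7 in hemisphere arrays. Col4a2 had 6814.0 and 6494.9 in ventral, 1719.5 and 3771.1 in medial, 3890.1 and 3963.5 in dorsal, 5774.8 and 4218.6 in rostral, 4865.0 and 6333.9 in occipital and 2412.4 and 7160.0 in hemisphere arrays. Both genes were low in hemisphere replicate 1 and medial replicate 1, but ventral replicate 1 was low for Col4a1 and high for Col4a2. Over the 12 arrays r was 0.52 (permutation p = 0.124) and rho 0.54 (permutation p = 0.0736), with adjusted values of 0.310 and 0.184 over 5 pairs of probe sets. Without the 2 arrays farthest from the median of Col4a1, ventral and hemisphere replicate 1, r was 0.90. The pooled r was thus lower with those 2 arrays than without them.

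The level of 2 tested endothelial markers was also lowest in hemisphere replicate 1. Of 16 on the array 4 were tested, Cldn5, Kdr, Sox18 and Eng, and 12 never exceeded 1387, among them Pecam1, Cdh5 and Tie1. Their summed level was 11294 in hemisphere replicate 1 and 14552 to 19144 on the other 11 arrays. Kdr, the main receptor for vascular endothelial growth factor, had 839.2 in hemisphere replicate 1 and 4911.4 in hemisphere replicate 2. Sox18, an endothelial transcription factor, had 497.2 and 2341.2 there. The other two tested markers did not follow, since Eng, at 2352.2 in hemisphere replicate 1, was higher on a single other array, and Cldn5, at 3958.2, lay above both medial arrays. Of 11 pericyte and smooth muscle markers only Cnn1 was tested, and Pdgfrb, Rgs5 and Acta2 never exceeded 1387. Their part in the type IV values was not tested.

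Hemisphere replicate 1 held the lowest value for 6 of the 23 tested matrix probe sets and the highest for 0. In the hemisphere set against the mean of the 5 regions limma called 0 of 5832 probe sets (0%), and 277 (4.75%) had an unadjusted p under 0.05. Of matrix probe sets 1 did, the f set of Tnc. Its difference was -1.24 ± 0.43 with a limma adjusted p of 0.962. The median matrix difference was -0.12, with 7 above 0 and 16 below, against -0.01 for all tested probe sets.

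Tnc codes for tenascin-C, a matrix glycoprotein of radial glia and the ventricular zone, and its values on the rostral and occipital arrays lay far apart. Its plain probe set had 11752.7 in rostral replicate 1 and 4857.6 in rostral replicate 2, against 6628.4 in occipital replicate 1 and 14566.7 in occipital replicate 2. In replicate 1 the rostral value was the higher of the pair, and in replicate 2 the occipital value was. The same held for Fn1, with 4209.5 and 2398.3 in rostral arrays against 2708.0 and 4082.7 in occipital arrays, and for Fbln2, with 2112.8 and 1244.6 in rostral arrays against 1261.8 and 2000.1 in occipital arrays. These 3 of 23 matrix probe sets (13%) differed by over 0.5 on the log2 scale in both replicates with opposite signs, where 326 of 5832 (5.59%) did over the array. With the same sign in both replicates, 0 of 23 and 78 of 5832 (1.34%) passed that size.

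The reversal between replicates was seen for most tested matrix probe sets. Of the 23 probe sets 18 (78.3%) had opposite signs of rostral minus occipital in the 2 replicates, where 59.2% of all 5832 did. Dcn, which codes for the fibroblast proteoglycan decorin, had 3521.1 in rostral replicate 1 and 448.1 in rostral replicate 2, against 466.0 in occipital replicate 1 and 2459.9 in occipital replicate 2. Summed meningeal markers were highest in rostral replicate 2, at 48715, and occipital replicate 1, at 47176, where Zic1 alone gave 22096.9 and 20732.9. Without Zic1 the order turned, with 32298 in rostral replicate 1 and 26618 in rostral replicate 2. The occipital sums were 26443 in replicate 1 and 31943 in replicate 2, which is the order seen for Tnc, Fn1 and Fbln2. Dcn had the same order but is itself part of this sum. The part of meningeal markers in the matrix values was not tested, and the arrays were kept under their labels.

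**Figure D4:**
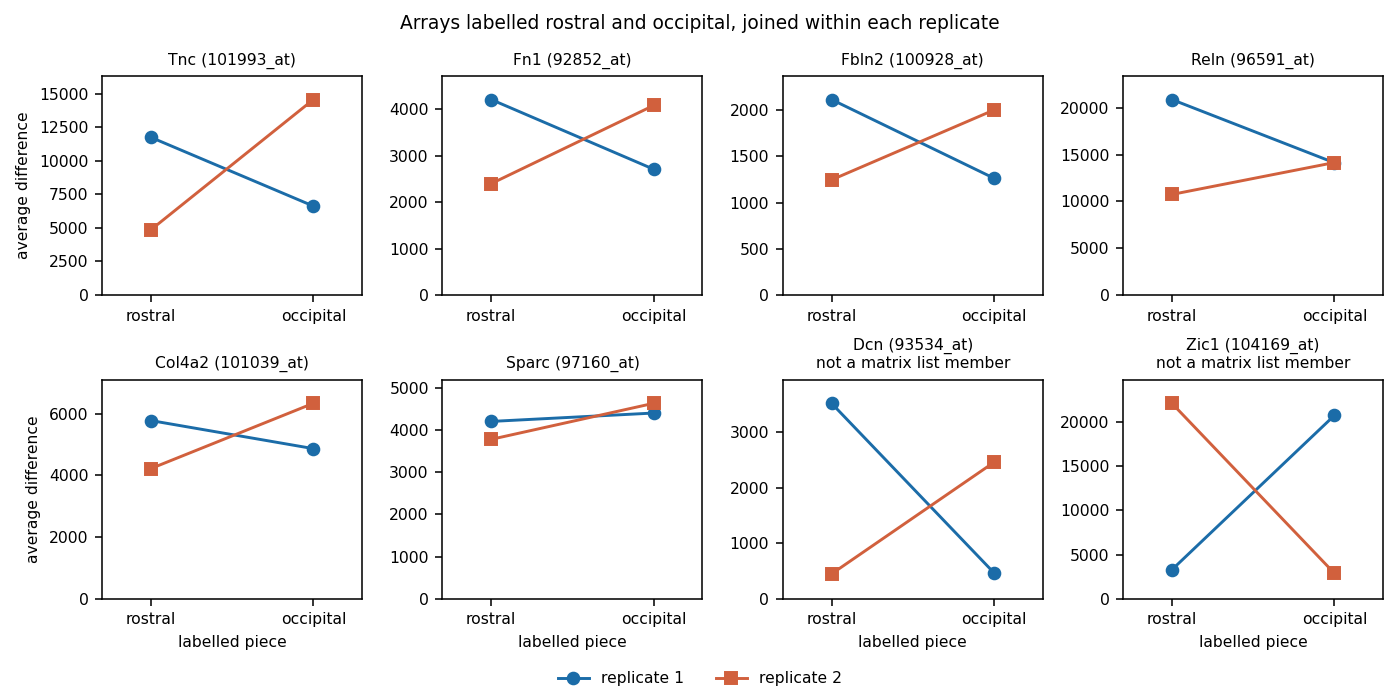
Average difference on the 2 rostral and the 2 occipital arrays, joined within replicate 1 (blue circles) and within replicate 2 (orange squares), for 6 matrix probe sets and the marker genes Dcn and Zic1. The lines of Tnc, Fn1, Fbln2, Col4a2, Dcn and Zic1 cross, and those of Sparc keep the same direction.

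Under these labels limma called 0 of 5832 probe sets (0%) for the rostral piece and 0 (0%) for the occipital piece. Over the array 104 probe sets (1.78%) had an unadjusted p under 0.05 for the rostral piece and 126 (2.16%) for the occipital piece. Among matrix probe sets, 0 did for the rostral piece and 2 for the occipital piece. The 2 were Sparc, at 0.56 ± 0.18, and Col26a1, at 0.76 ± 0.28, both with a limma adjusted p of 1.00. The median matrix difference was -0.01 in the rostral piece and 0.10 in the occipital piece, against 0.00 and 0.01 for all tested probe sets.

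Vcan and 1 probe set each of Tnc and Reln were called between the replicates. In an additive limma model of group and replicate, which sets 6 arrays against 6, these 3 of 23 matrix probe sets (13%) were called, and so were 1004 of 5832 over the array (17.2%, with 9.77% higher and 7.44% lower), so the matrix share was not above that of the array. The median matrix difference, replicate 2 minus replicate 1, was 0.17, with 18 above 0 and 5 below, against 0.00 and 2937 of 5832 above 0 over the array. The 6 groups each supply 1 array to either side, and the labels do not say what else differed between the replicates.

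Vcan fell to 3884.8, 3285.9, 5409.8, 4800.8, 5113.0 and 3983.0 in replicate 2, against 5147.1, 3710.6, 7111.6, 6418.0, 5670.6 and 4860.7 in replicate 1, in the order ventral, medial, dorsal, rostral, occipital and hemisphere. It was lower in replicate 2 in 6 of 6 groups, by -0.31 ± 0.08 (limma adjusted p = 0.0357), although the 2 sets of values overlap across groups. The f set of Tnc ranged from 490.3 to 1796.4 in replicate 2 and from 1034.7 to 4364.1 in replicate 1, and was lower in 6 of 6 groups by -0.80 ± 0.18 (limma adjusted p = 0.0254). The r set of Reln ranged from 1438.4 to 2137.0 in replicate 2 and from 436.7 to 1511.7 in replicate 1, and was higher in 6 of 6 groups by 0.84 ± 0.19 (limma adjusted p = 0.0279). Without the rostral and occipital arrays Tnc kept its call (limma adjusted p = 0.0275), while Vcan (0.0754) and Reln (0.0517) did not. Leaving out single arrays also ended calls of all 3, with limma adjusted p-values of up to 0.0999 for Vcan, 0.0665 for Tnc and 0.0816 for Reln.

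The replicate differences of Tnc and Reln were not shared by the other probe set of the same gene. The plain set of Tnc was higher in replicate 2 in 5 of 6 groups, and that of Reln was higher in replicate 2 in 2 of 6. Over the 12 arrays the 2 probe sets of Reln correlated at r = -0.30 (permutation p = 0.340, adjusted 0.425) and those of Tnc at r = 0.24 (permutation p = 0.469, adjusted 0.469). For Ncan r was 0.33 (adjusted permutation p = 0.425) and for Fbln1 it was 0.60 (permutation p = 0.0379, adjusted 0.190). Spearman's rho was -0.24 for Reln, 0.13 for Tnc, 0.28 for Ncan and 0.67 for Fbln1, with adjusted permutation p-values of 0.555, 0.700, 0.555 and 0.0991. Without the 2 arrays farthest from the median, r was 0.03 for Reln, 0.16 for Tnc, 0.10 for Ncan and 0.77 for Fbln1.

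The kind of probe set went along with the direction. Of the 282 tested r probe sets of the array, 72.7% were higher in replicate 2 and 26.6% were called higher, where 49.5% of 4749 probe sets with no special suffix were higher and 8.70% were called higher. Among probe sets with the suffix f, 40.9% of 440 were higher. The matrix r probe sets are those of Reln and Col1a2, and the called Tnc probe set carries an f. The r set of Col1a2 was higher in replicate 2 by 0.55 ± 0.17 with a limma adjusted p of 0.0607. The control gene beta-actin has probe sets at both transcript ends, and its 5′ signal divided by its 3′ signal was 0.804 to 0.887 in replicate 2 and 0.604 to 0.831 in replicate 1, and that of GAPDH was 0.979 to 1.14 in replicate 2 and 0.982 to 1.16 in replicate 1. Whether these bear on the matrix values was not tested.

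**Figure D5:**
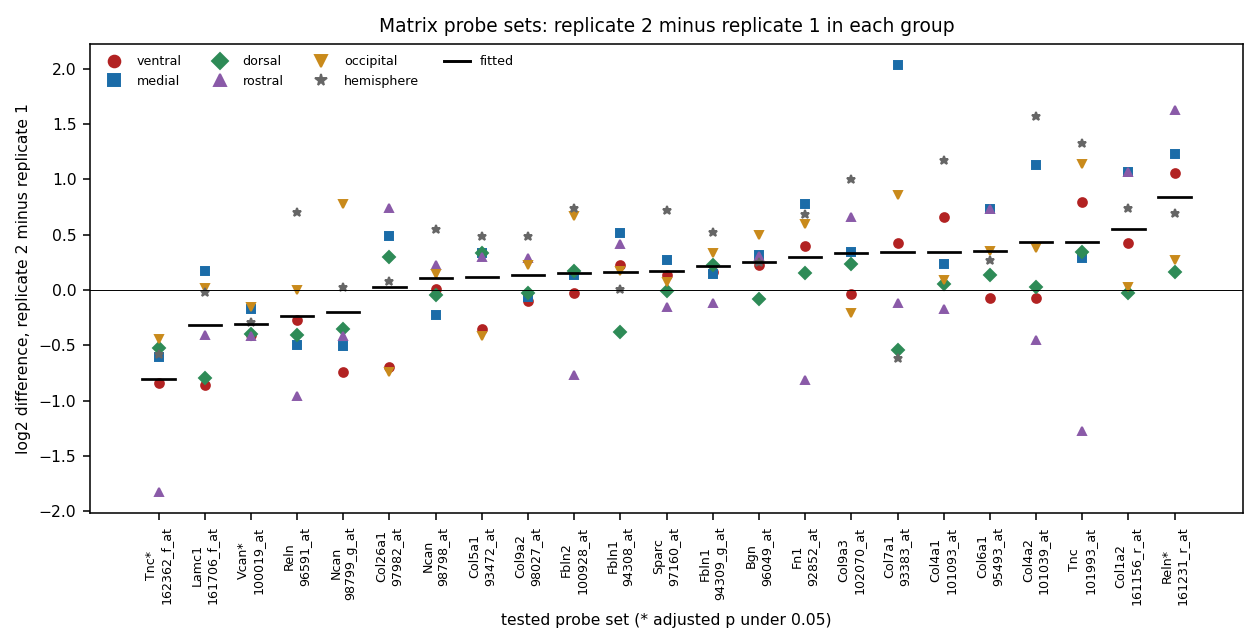
Replicate 2 minus replicate 1 on the log2 scale for the 23 tested matrix probe sets, with 1 symbol for each of the 6 groups and a line at the fitted difference. The 3 probe sets with an asterisk had an adjusted p under 0.05: all 6 symbols lie below 0 for the f set of Tnc and for Vcan, and above 0 for the r set of Reln.

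The remaining tested genes showed no called difference in any comparison. Bgn, a small proteoglycan that binds type I collagen, stayed between 1995.1 and 3316.5. Col6a1 stayed between 1633.9 and 2803.8. Col7a1 had 663.5 in medial replicate 1 and 2833.2 in medial replicate 2, so its lowest and highest value came from the same piece. With 2 arrays a group the median SE of a regional difference was 0.26, and the 95% interval lay within a 2-fold change either way for 12 of 23 probe sets in the ventral, 14 in the medial and 11 in the dorsal comparison. For the others a 2-fold difference was not excluded by these arrays.

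Genes that process, bind or cut the matrix were described from lists of their own. For the ventral piece 1 of 8 tested matrix receptor genes, 1 of 7 tested protease and inhibitor genes and 1 of 8 tested proteoglycan genes were called lower, none of these higher, and 0 of 7 tested genes of collagen processing were called, where 5.54% of the array was called lower. Ddr1, the collagen receptor kinase of epithelia and glia, had 2041.5 and 2764.0 in ventral arrays and 2943.6 to 5430.8 in the other regions (-0.80 ± 0.17, limma adjusted p = 0.0200). Mmp14, the membrane-bound collagenase, had 3779.4 and 3722.8 in ventral arrays and 4781.7 to 9849.2 in the other regions (-0.76 ± 0.17, limma adjusted p = 0.0243). Gpc4, a glypican of neural progenitors, had 435.7 and 178.5 in ventral arrays, both under the floor, and 916.0 to 2283.6 in the other regions (limma adjusted p = 0.0307). For these 3 genes all ventral arrays lay below all arrays of the other regions, opposite to Col9a2. Leaving out either ventral array ended each of the 3 calls, with limma adjusted p-values of up to 0.241, 0.185 and 0.215. Without the rostral and occipital arrays the limma adjusted p was 0.0644 for Ddr1, 0.0566 for Mmp14 and 0.0113 for Gpc4. With no filter all 3 ventral calls were lost. That of Gpc4 was also lost with the floor at 2 times its value and with trend and robust settings of limma. Leaving out some single arrays of other regions also ended the ventral calls of Gpc4 and Mmp14.

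The same 3 genes were higher in the medial than in the ventral piece, a comparison that shares the ventral arrays. Ddr1 differed by 1.11 ± 0.21 (limma adjusted p = 0.0131) and Mmp14 by 1.11 ± 0.22 (limma adjusted p = 0.0131). Itgb1, the beta chain of most collagen and laminin receptors, had 14734.7 and 16667.5 in medial arrays and 8936.8 and 10820.8 in ventral arrays, with a difference of 0.67 ± 0.16 (limma adjusted p = 0.0304) from an f probe set. Crtap, a protein of the collagen prolyl 3-hydroxylase complex, had 2355.2 and 2419.6 in medial arrays and 1097.3 and 1678.0 in ventral arrays, with a difference of 0.82 ± 0.22 (limma adjusted p = 0.0485). Without the rostral and occipital arrays Ddr1 (0.0357), Mmp14 (0.0288) and Gpc4 (0.00828) kept their calls by limma adjusted p, and Itgb1 (0.0669) and Crtap (0.0986) did not. Leaving out single medial or ventral arrays ended calls of all 5 genes. The call of Crtap was lost in 9 of 12 fits without a single array, with limma adjusted p-values of up to 0.269, and that of Itgb1 in 6, up to 0.193. Crtap was also lost with a lower floor, with no filter and with trend and robust settings of limma. Of 7 tested radial glial markers, Nes, Pax6 and Hopx were called higher in the medial than in the ventral piece, where 6.05% of the array was, and Hopx alone was called for the medial piece against the other 4 regions. Leaving out single medial or ventral arrays ended these calls of Nes and Pax6, and that of Hopx against the other 4 regions. The summed level of the 9 radial glial markers on the array was 96100 to 98823 in medial arrays and 83801 to 86326 in ventral arrays. It also reached 97688 in rostral replicate 1 and 98886 in occipital replicate 1. Fabp7, the brightest of them, went the other way, at 47695.9 and 51608.3 in medial and 54953.2 and 53284.7 in ventral arrays. The part of radial glial markers in these receptor and protease values was not tested.

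Between the replicates, the collagen chaperone gene Serpinh1 was called higher in replicate 2 by 0.50 ± 0.13 and the procollagen protease gene Bmp1 lower by -0.40 ± 0.11 (limma adjusted p = 0.0409 and 0.0454). Over the array 9.77% were called higher in replicate 2 and 7.44% lower. Called higher in replicate 2 were also the receptor genes Cd47 and Ddr2, the protease genes Plat and Mmp16 and the reelin adaptor gene Dab1. Ddr2, the receptor kinase for fibrillar collagen, differed most of these, by 0.94 ± 0.19 (limma adjusted p = 0.0191), and was higher in 6 of 6 groups. Leaving out single arrays ended its call in 6 of 12 fits, with limma adjusted p-values of up to 0.0569, and those of Serpinh1, Bmp1, Cd47 and Dab1 in 10 of 12, of Mmp16 in 8 and of Plat in 2. Without the rostral and occipital arrays Ddr2 (0.0226), Cd47 (0.0425) and Dab1 (0.0401) kept their calls by limma adjusted p, and Serpinh1 (0.0633), Bmp1 (0.0549), Plat (0.0700) and Mmp16 (0.0607) did not. With no filter all 7 calls were lost, and that of Dab1 also under 4 other settings. The call of Bmp1 was also lost with the floor at 2 times its value, with trend and robust settings and without a group term. Those of Serpinh1, Cd47 and Plat were also lost without a group term, and that of Mmp16 with the floor at 2 times its value.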

How the data were processed

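The authors deposited 1 average difference per probe set and array, a linear intensity that can be negative. The protocol text has the RNA purified on oligo dT columns before labelling, while the molecule label of the samples is total RNA. The software is not given in the sources used here. The deposited intensities have 2% trimmed means of 2501.6 to 2501.9 on all 12 arrays and were not rescaled. The 66 control probe sets were left out, and values under 693.5, the root mean square of the negative ones, were raised to it before log2. Tests used limma 3.58.1 in R 4.3.3, with 6 group means, 6 residual and 2.86 prior degrees of freedom, two-sided, with Benjamini-Hochberg adjustment over 5832 probe sets in each comparison. The replicate comparison added a replicate term. The number of arrays limits the precision. Permutation tests of correlations used scipy 1.17.1 with 100000 resamples.

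The members and all gene lists were chosen with earlier results of these data known. Genes named include the members called in a comparison, the members of each role, and the called genes of the lists that process, bind or cut the matrix. Of the cell type markers, calls between pieces not detailed above were those of Igfbp2, Car2, Ttr, Snap25, Gap43, Nefl and Syt1. Between the replicates they were those of Cxcl12, Pdgfra, Eng, Sox2, Hes1 and Pax6. A gene with several probe sets is represented by the one with the highest mean. Symbols of the platform annotation matched RefSeq for all 80 probe sets.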

Additional observations from a re-analysis of the deposited data

How the results depend on the processing

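Alternatives were other floors, no filter, a stricter filter of 4 times the floor, quantile normalization, an arcsinh scale, limma with trend and robust settings, a replicate block, other regions without the ventral piece, and leaving out each array. Leaving out the rostral and occipital arrays, and leaving Zic1 or Reln out of summed marker levels, were chosen after seeing the data. The number of matrix probe sets called stayed at 0 in every alternative run for the dorsal, rostral, occipital and hemisphere comparisons. For the ventral piece, 1 became 0 under the stricter filter, which leaves Col9a2 untested. For medial against ventral, 1 became 0 with no filter (limma adjusted p = 0.0513), the stricter filter, and trend and robust settings (0.0566). For the replicates, 3 became 1 with no filter (Lamb1), 1 with the stricter filter (Vcan) and 1 without the rostral and occipital arrays (Tnc); without a group term Vcan (0.238) and Tnc (0.0985) were not called. Leaving out single arrays gave 0 to 1 calls for the F-test over the regions, 0 to 2 for ventral, 0 to 3 for medial against ventral and 0 to 4 for the replicates, and 0 for medial against the other regions. The replicates share numbers, but the labels do not pair them. Over tested probe sets, replicate 2 minus replicate 1 correlated between groups at r = -0.06 (rostral and occipital) to 0.56 (dorsal and ventral). With the replicate number as a block the limma F-test called 2 (Sparc and Vcan, adjusted p = 0.0486 and 0.0339) and the medial comparison 1 (Vcan, 0.0223), and Col9a2 kept both of its calls. No named difference changed sign. Col9a2 ranged from 0.68 to 0.87 for the ventral piece and from -0.97 to -0.72 for medial against ventral.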

Other observations

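The non-member genes most like 3 matrix patterns over the 12 arrays were found by Pearson's r of floored log2 values. This is a description of arrays that share groups and replicates. Each gene was represented by its tested probe set of highest mean, and probe sets given to several genes were left out. The mean of Col1a1, Col1a2 and Col3a1 in effect follows the Col1a2 r probe set, since the other 2 genes lie near or under the floor. Its closest were Yipf3 (r = 0.96), Immt (0.95), Gamt (0.92), Rae1 (0.92) and Pdlim1 (0.92), of which Immt, Rae1 and Pdlim1 are also r probe sets and Gamt an f probe set. Immt had 7093.5 in medial replicate 2 and 1997.7 in medial replicate 1, and Rae1 had 13114.1 and 3740.9 there, on the array where Col1a2 had its highest value of 7572.8. Among members, the r set of Col1a2 was closest to the r set of Reln, with r = 0.89, and to Col6a1, with r = 0.87.

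The mean of Col4a1, Col4a2 and Lamc1 was closest to Rxra (r = 0.91), Mia3 (0.87), Ramp2 (0.87), Git1 (0.87) and Psme3 (0.87). Mia3 codes for a receptor that loads collagen into transport vesicles, and Ramp2 for a partner of the endothelial adrenomedullin receptor. All 5 had their lowest value on hemisphere replicate 1, with Mia3 at 1822.6 and Ramp2 at 1256.1. The plain Reln probe set was closest to Amot (r = 0.87), St8sia3 (0.85), Myadm (0.84), Rrbp1 (0.83) and Sez6l (0.83).

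A probe set that the platform annotation gives to both Pald1 and Thbs1 ranged from 664.1 to 1599.1 and was left out of the members, since its signal cannot be given to either gene.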
